A study of Homo sapiens with 20 samples.

Results

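The glycerol-3-phosphate and lysophosphatidic acid acyltransferases carry out the first acylation steps of glycerolipid synthesis, and their mRNA levels are described here in OVCAR8 tumors of mice given PBS or sodium gluconate. The genes were chosen by symbol and comprise 4 glycerol-3-phosphate acyltransferases (GPAM, GPAT2, GPAT3 and GPAT4), 5 lysophosphatidic acid acyltransferases (AGPAT1, AGPAT2, AGPAT3, AGPAT4 and AGPAT5) and LPIN1, a phosphatidic acid phosphatase that acts after them and is not an acyltransferase. They make up 10 of the 24196 genes in the table. A mean of at least 0.5 FPKM (fragments scaled to the length of the gene and the depth of the library) over the libraries was needed for the test, which 9 of the 10 genes reached and GPAT2 did not.

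The study examines CHP1 and TMEM87A in metastatic ovarian cancer and sodium gluconate as a drug directed at their complex. By the paper's methods for orthotopic tumors, luciferase-tagged OVCAR8 cells were placed in the ovarian fat pad of NSG mice aged 6 weeks. A figure legend of the paper gives the cells of the gluconate study as OVCAR8-sgNC-luc, which carry the control guide sgNC, and the labels of the libraries give OVCAR8. Weekly intraperitoneal dosing over 35 days was with sodium gluconate at 1 mg/kg in the treated group and with PBS in the control group of the efficacy study. The labels give 4 tumor libraries for PBS and 4 for gluconate, while the paper's text speaks of OVCAR8 cells treated with gluconate; the labels were followed. Column names hold only a C or a T with a number; C was read as PBS and T as gluconate, since the paper's plot of this comparison sets T over C and only these groups number 4 libraries each. The tumors come from 1 cell line and grew in a host without a working adaptive immune system. The labels do not say beyond a replicate number whether the libraries come from separate animals, so p values below measure only the spread between these samples. The other 12 libraries of the series, from sgCHP1, sgTMEM87A and sgNC cells in culture, were not analysed here.

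Glycerolipid synthesis starts when a GPAT joins an acyl group to glycerol-3-phosphate, which gives lysophosphatidic acid. An AGPAT adds another acyl group to make phosphatidic acid, and lipins or lipid phosphatases convert this to diacylglycerol, the source of triacylglycerol and of the main membrane phospholipids. GPAT4 sits in the endoplasmic reticulum, where CHP1 binds and activates it, while GPAM and GPAT2 are mitochondrial.

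PBS replicate 4 stood apart before any gene was considered. Its FPKM values rest on 3953206 fragments, and those of PBS replicates 1, 2 and 3 rest on 45605414, 46551535 and 39895393. Gluconate replicates 1, 2, 3 and 4 had 40332129, 42786196, 39325749 and 42748028 fragments. PBS replicate 4 was thus 9.95 to 11.8 times less deep, with 15514 genes above 0 against 19991 to 20251 in the other libraries, and the fold changes and the counts of the 9 genes tested are given with and without it.

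The ovarian carcinoma label was checked against 10 markers, all in the table. The most abundant, the keratin gene KRT8, was at 700 to 1051 FPKM, and the 10 genes summed to 1670 to 2413 FPKM in every library. The keratin genes KRT18, at 513 to 987 FPKM, and KRT7, at 124 to 393 FPKM, came next. The sum is thus mostly keratin mRNA. PAX8, a lineage factor of Müllerian epithelium, was at 32.4 to 50.7 FPKM, MSLN (mesothelin) at 103 to 171 FPKM, EPCAM at 10.3 to 22.3 FPKM and WT1 at 1.07 to 6.58 FPKM. KRT19, MUC16 (the CA-125 antigen) and SOX17 were under 0.5 FPKM throughout, so these 3 defining markers were absent or nearly so. Of the 7 markers tested, 1 was higher in gluconate tumors at an unadjusted p under 0.05, KRT7, with a log2 fold change of 0.73 (adjusted p = 0.740 in limma with Benjamini-Hochberg adjustment); the fold change was 0.48 without PBS replicate 4, the lowest library for KRT7, and the groups overlap. Over all genes tested, 3.13% were higher by this measure. The median log2 fold change of the 7 was 0.06, and -0.14 without PBS replicate 4. WT1 (-0.67), KRT18 (-0.33) and KRT8 (-0.20) were below 0 and did not pass. In PBS replicate 4, WT1 was at 6.58 FPKM, against 1.07 to 1.82 FPKM in the other libraries. Without that library, the log2 fold change of WT1 was -0.14. Apart from KRT8, these markers were named after their values were seen.

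The 10 genes spanned a wide range of mRNA levels, and their order was nearly the same in every tumor. Averaged over the 8 libraries, AGPAT2 had 59.4 FPKM, AGPAT1 31.7 FPKM and GPAT4 28.8 FPKM, and these 3 genes were far above the rest. AGPAT5 followed at 8.14 FPKM, AGPAT3 at 4.87 FPKM and LPIN1 at 2.69 FPKM. AGPAT4 had 1.67 FPKM, GPAM 1.51 FPKM, GPAT3 0.714 FPKM and GPAT2 0.020 FPKM. Each gene was above the next in this order in 8 of 8 libraries, except AGPAT4, which was above GPAM in 7 of 8. Across libraries, the ranges of AGPAT1 and GPAT4, of LPIN1 and AGPAT4, and of AGPAT4 and GPAM overlap, although within a library the order of the first 2 pairs always held. AGPAT2 was above 92.0% of the genes tested in its mean level and GPAT4 above 83.0%.

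**Figure D1:**
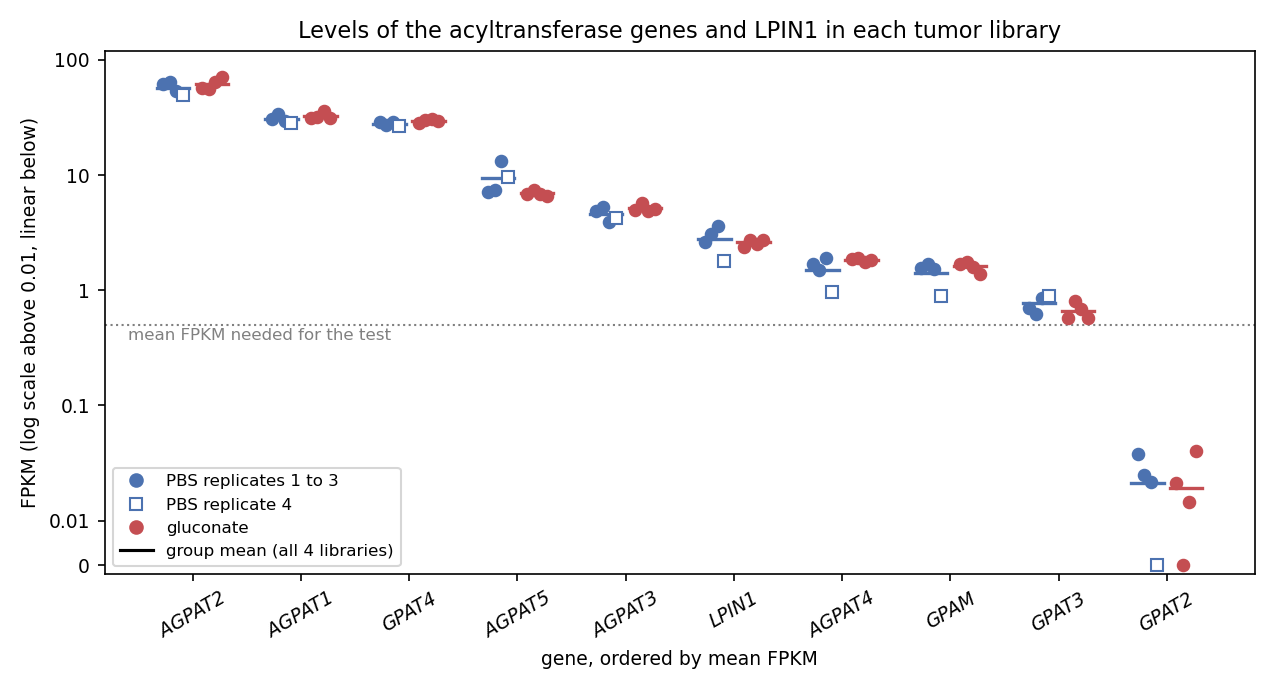
Level of each gene in FPKM, on a scale that is log above 0.01 and linear below, ordered by mean, with 1 mark per tumor library for PBS and gluconate and PBS replicate 4 as an open square; lines are group means. AGPAT2, AGPAT1 and GPAT4 lie well above the other genes, and the groups overlap in every gene.

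By level, AGPAT2 and GPAT2 are the highest and the lowest of the 10 genes, and their promoters are shown to let a reader see how they differ in CpG, the dinucleotide CG that reads the same on both strands. RefSeq (GRCh38.p14) promoters were matched for 8 of the 10 genes. Each line gives the 150 bases directly before the most upstream start that the RefSeq table lists, 5′ to 3′, in lower case with CpG in capitals; both genes are on the minus strand, AGPAT2 at chr9:136687458-136687607 and GPAT2 at chr2:96036266-96036415.
AGPAT2: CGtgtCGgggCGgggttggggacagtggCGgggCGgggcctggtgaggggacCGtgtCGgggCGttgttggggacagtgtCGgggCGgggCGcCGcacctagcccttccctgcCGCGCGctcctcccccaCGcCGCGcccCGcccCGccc
GPAT2: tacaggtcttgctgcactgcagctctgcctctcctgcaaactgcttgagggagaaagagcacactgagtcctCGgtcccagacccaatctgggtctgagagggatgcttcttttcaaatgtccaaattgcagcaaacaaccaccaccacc
The stretches hold 20 and 1 CpG. Over the 250 bases before the start, AGPAT2 has 26 CpG, more than 74.0% of the 17463 genes with such a window, and GPAT2 has 2, more than 7.74%; the median is 17. The RefSeq table lists 3 starts for GPAT2 and 1 for AGPAT2. GENCODE 29 places the 5′ ends of GPAT2 (at 96039451), GPAM and AGPAT3 further upstream than these windows, and no relation between CpG and mRNA level is drawn across the genes. Promoter activity or methylation was not measured.

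At the first acylation step, GPAT4 was the most abundant gene and differed little between tumors. Its level was 28.9, 27.1, 29 and 26.8 FPKM in PBS replicates 1, 2, 3 and 4, and 28.6, 29.9, 30.4 and 29.6 FPKM in gluconate replicates 1, 2, 3 and 4. PBS replicates 2 and 4 were lowest and gluconate replicate 3 was highest, and the groups overlap because gluconate replicate 1 lies below PBS replicates 1 and 3. These values rest on 7355 to 8430 fragments in 7 libraries and on 677 in PBS replicate 4. Group means were 28.0 ± 1.15 FPKM (SD, n = 4) for PBS and 29.6 ± 0.759 FPKM (SD, n = 4) for gluconate. On the log2(FPKM + 0.1) scale, which understates differences in genes of low level, the fold change was 0.08 (standard error 0.07, 95% interval -0.07 to 0.23, or 0.956 to 1.17 times). The unadjusted p was 0.241 and the adjusted p 0.740 in limma with Benjamini-Hochberg adjustment, and the exact permutation test gave p = 0.0857. Without PBS replicate 4 the log2 fold change was 0.06 (0.953 to 1.14 times; exact permutation p = 0.114), and with all libraries it was 0.016 under scaling by median ratios and 0.047 under quantile normalization. In a bulk tumor, a difference in the number of cells that make an mRNA and a difference in mRNA per cell cannot be told apart.

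GPAT4 varied little within groups. Its standard deviation within groups, on the log2 scale, was 0.0493, smaller than that of 99.3% of the genes tested, whose median was 0.206. Without PBS replicate 4 it was 0.0444, smaller than that of 97.8% of genes, with a median of 0.134. These shares are over genes of every level, and higher levels have smaller counting error; GPAT4 was not compared with genes of its own level only.

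GPAM, the mitochondrial enzyme of the same step, was at 1.56, 1.69, 1.53 and 0.898 FPKM in PBS replicates 1 to 4 and at 1.69, 1.77, 1.59 and 1.38 FPKM in gluconate replicates 1 to 4. PBS replicate 4 was the lowest and the groups overlap. Its log2 fold change of 0.20 (standard error 0.21, 95% interval -0.26 to 0.66; exact permutation p = 0.429) became 0.01 without that library (exact permutation p = 0.943).

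GPAT3, a second enzyme of the endoplasmic reticulum, had 0.701, 0.623, 0.861 and 0.888 FPKM in the PBS tumors and 0.577, 0.803, 0.681 and 0.575 FPKM in the gluconate tumors, in replicate order. PBS replicates 3 and 4 were highest, and the groups overlap. Its log2 fold change was -0.19 (standard error 0.20, 95% interval -0.65 to 0.26; exact permutation p = 0.229), and -0.13 without PBS replicate 4.

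GPAT2, a mitochondrial isoform known mainly from testis, was near 0. It had 6, 4, 3 and 0 fragments in PBS replicates 1 to 4 and 3, 0, 2 and 6 fragments in gluconate replicates 1 to 4. The highest level was 0.0403 FPKM, in gluconate replicate 4. In PBS replicate 4, 3 fragments would be 0.218 FPKM, against 0.0201 FPKM in gluconate replicate 2. The 0 of PBS replicate 4 is thus a weaker statement than the 0 of gluconate replicate 2. GPAT2 has the pseudogene copies GPAT2P1 and GPAT2P2, which have no matching symbol in these data. Of its exon bases, 8.32% are shared with FAHD2CP on the opposite strand. How reads that match GPAT2 and these other genes alike were counted is not given. Whether this lowered the level of GPAT2 was not tested.

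Over the 4 genes, the first step summed to 30.2 ± 1.36 FPKM in the PBS group (SD, n = 4) and to 31.9 ± 0.825 FPKM in the gluconate group (SD, n = 4), with overlapping groups; the difference was 1.70 FPKM, and 1.18 FPKM without PBS replicate 4. GPAT4 made up 92.1% to 93.8% of this sum in every tumor, GPAM 3.14% to 5.73% and GPAT3 1.82% to 3.10%. The share of GPAT4 was 92.7 ± 0.745% (SD, n = 4) in PBS and 92.8 ± 0.687% (SD, n = 4) in gluconate tumors, a difference of 0.14 percentage points (exact permutation p = 0.83). That difference was 0.494 points without PBS replicate 4 (exact permutation p = 0.371). It reversed without PBS replicate 2 (-0.07 points) and without gluconate replicate 4 (-0.15 points). A share of mRNA is not a share of enzyme activity, which was not measured.

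**Figure D2:**
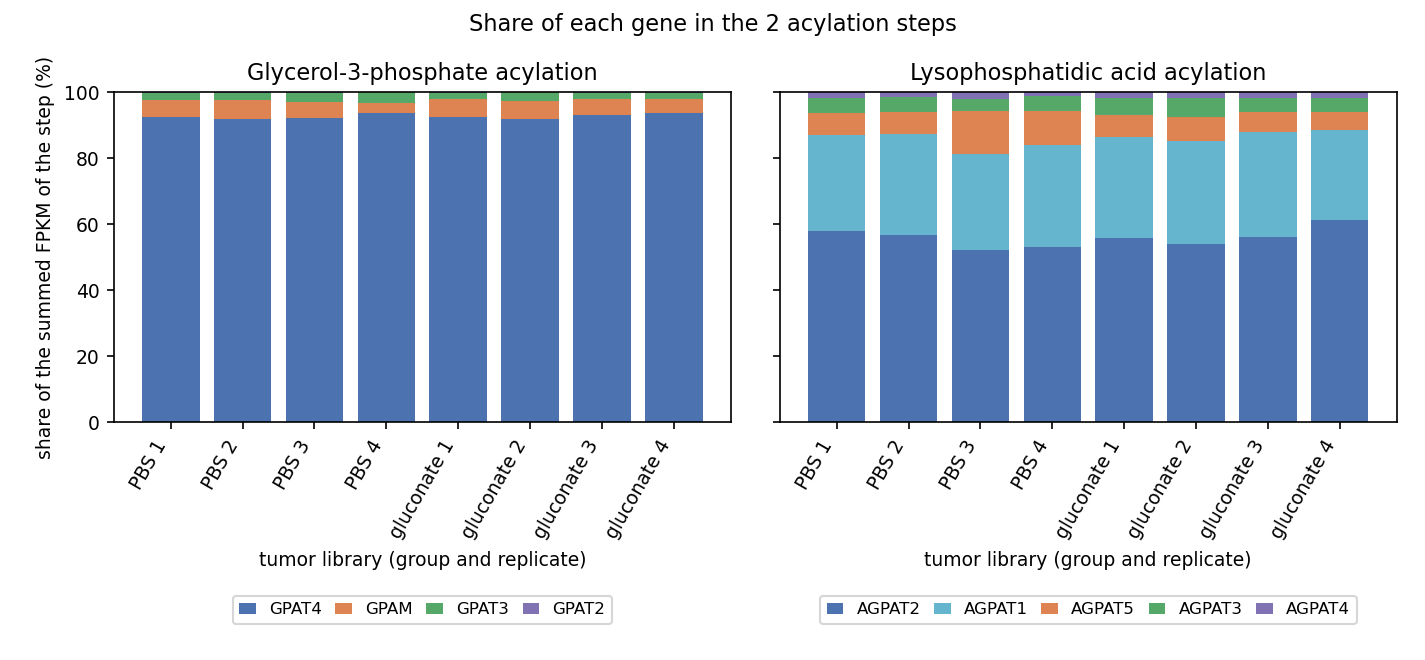
Percent of the summed FPKM of each acylation step held by each gene, with 1 bar per tumor library and a panel for each step. GPAT4 fills most of the first step in every bar, and AGPAT2 with AGPAT1 most of the next, where AGPAT5 is widest in PBS replicate 3.

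At the next step, which acylates lysophosphatidic acid, AGPAT2 and AGPAT1 led. AGPAT2, the isoform mutated in an inherited lipodystrophy, had 61.3, 63.7, 53.4 and 49.4 FPKM in PBS replicates 1, 2, 3 and 4, and 56.5, 55.8, 63.7 and 71.5 FPKM in gluconate replicates 1, 2, 3 and 4. PBS replicate 4 was lowest, gluconate replicate 4 highest, and the other 6 tumors lay mixed between them. Between the groups, AGPAT2 had a log2 fold change of 0.12 (standard error 0.11, 95% interval -0.13 to 0.37; exact permutation p = 0.343), and of 0.05 without PBS replicate 4.

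AGPAT1, a widely expressed isoform of the endoplasmic reticulum, was at 30.7, 34.2, 29.7 and 28.6 FPKM in PBS tumors and 31, 32.1, 36.0 and 31.6 FPKM in gluconate tumors, in replicate order. The groups overlap through PBS replicate 2, and the log2 fold change was 0.09 (standard error 0.08, 95% interval -0.10 to 0.27; exact permutation p = 0.286), and 0.05 without PBS replicate 4. In the GENCODE 29 annotation, 29.9% of its exon bases are shared with PPT2-EGFL8 on the opposite strand, a gene at 0 to 0.154 FPKM in these libraries. For GPAT4 the shared part is 9.18%, with AC009630.3 on the opposite strand, which has no matching symbol in these data. Whether the libraries keep the strand is not given, so how the shared bases of AGPAT1 and GPAT4 were counted is unknown.

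AGPAT5 had the widest spread of the 3 remaining acyltransferases of this step and, with all 8 libraries, the lowest limma p of the 9 genes tested. It is known from mitochondria and the endoplasmic reticulum. Its level was 7.07, 7.42, 13.2 and 9.70 FPKM in PBS replicates 1, 2, 3 and 4, and 6.85, 7.46, 6.87 and 6.55 FPKM in gluconate replicates 1, 2, 3 and 4. PBS replicates 3 and 4 were high, whereas PBS replicates 1 and 2 lay at the level of the gluconate tumors, and gluconate replicate 2 overlaps them. The means were 9.35 ± 2.82 FPKM (SD, n = 4) and 6.93 ± 0.380 FPKM (SD, n = 4). Between the groups, AGPAT5 had a log2 fold change of -0.38 (standard error 0.18, 95% interval -0.79 to 0.03) with an unadjusted p of 0.0643 and an adjusted p of 0.740 in limma with Benjamini-Hochberg adjustment; the exact permutation test gave p = 0.0857, the same as for GPAT4. It was -0.35 without PBS replicate 4 and -0.20 without PBS replicate 3. Its unadjusted p from limma came under 0.05 in 3 alternatives, with log2 fold changes of -0.50 without PBS replicate 1, -0.48 without PBS replicate 2 and -0.45 with scaling by median ratios. More genes of the whole table were under 0.05 in these alternatives too, with 1216 of 12486, 874 of 12488 and 708 of 12486 in the same order, beside 577 of 12486 with all libraries.

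AGPAT3, which acts in the endoplasmic reticulum and Golgi, had 4.90, 5.27, 3.92 and 4.24 FPKM in PBS tumors and 4.94, 5.72, 4.90 and 5.07 FPKM in gluconate tumors. PBS replicates 3 and 4 were the lowest, and the groups overlap (log2 fold change 0.17, exact permutation p = 0.229; 0.14 without PBS replicate 4). AGPAT4 was at 1.67, 1.51, 1.89 and 0.967 FPKM in PBS tumors and at 1.85, 1.89, 1.76 and 1.83 FPKM in gluconate tumors. Its gluconate values lay close together, and PBS replicates 3 and 4 were the highest and the lowest of the PBS group. For AGPAT4, a log2 fold change of 0.30 (exact permutation p = 0.143) was 0.11 without PBS replicate 4 (exact permutation p = 0.257).

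Summed, this step came to 103 ± 7.99 FPKM in the PBS group (SD, n = 4) and to 108 ± 7.59 FPKM in the gluconate group (SD, n = 4), 3.17 to 3.80 times the sum of the first step in each library. The difference of 5.26 FPKM was 1.83 FPKM without PBS replicate 4. AGPAT2 held 52.3% to 61.4% of it, and AGPAT2 with AGPAT1 81.4% to 88.5%. The share of AGPAT5 ran from 5.62% to 12.9%, with the highest in PBS replicate 3.

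LPIN1, which removes the phosphate of phosphatidic acid to give diacylglycerol, had 2.60, 3.09, 3.62 and 1.78 FPKM in PBS tumors and 2.36, 2.75, 2.54 and 2.75 FPKM in gluconate tumors. PBS tumors held both the highest and the lowest value. Its log2 fold change was -0.05 (standard error 0.20; exact permutation p = 0.80), and it was -0.24 without PBS replicate 4 (exact permutation p = 0.114) but 0.09 without PBS replicate 3.

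Of the 9 genes tested, 0 had an unadjusted p under 0.05, and the groups overlapped in all 9. Over all 12486 genes tested, 577 (4.62%) had such a p, with 391 (3.13%) higher and 186 (1.49%) lower in gluconate tumors, and 436 (3.49%) had groups that did not overlap. In limma with Benjamini-Hochberg adjustment 0 genes (0%) had an adjusted p under 0.05, beside the 577 unadjusted. Without PBS replicate 4, again 0 of 9 had an unadjusted p under 0.05 and 0 of 9 had groups apart. There, 778 of 12530 genes (6.21%) had an unadjusted p under 0.05, with 357 (2.85%) higher and 421 (3.36%) lower, and 764 (6.1%) had groups that did not overlap. The adjusted count from limma with Benjamini-Hochberg adjustment was again 0 (0%), beside the 778 unadjusted. With 9 genes and these shares, a count of 0 is close to the background and shows no absence of a difference; the intervals above give the sizes the data allow.

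The median log2 fold change of the 9 genes was 0.09, with 6 above 0 and 3 below, beside 0.07 over all genes tested. Without PBS replicate 4 it was 0.05, beside -0.00 over all genes. The exact permutation test cannot give a p below 0.0286 with 8 libraries (70 splits) or with 7 (35 splits).

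**Figure D3:**
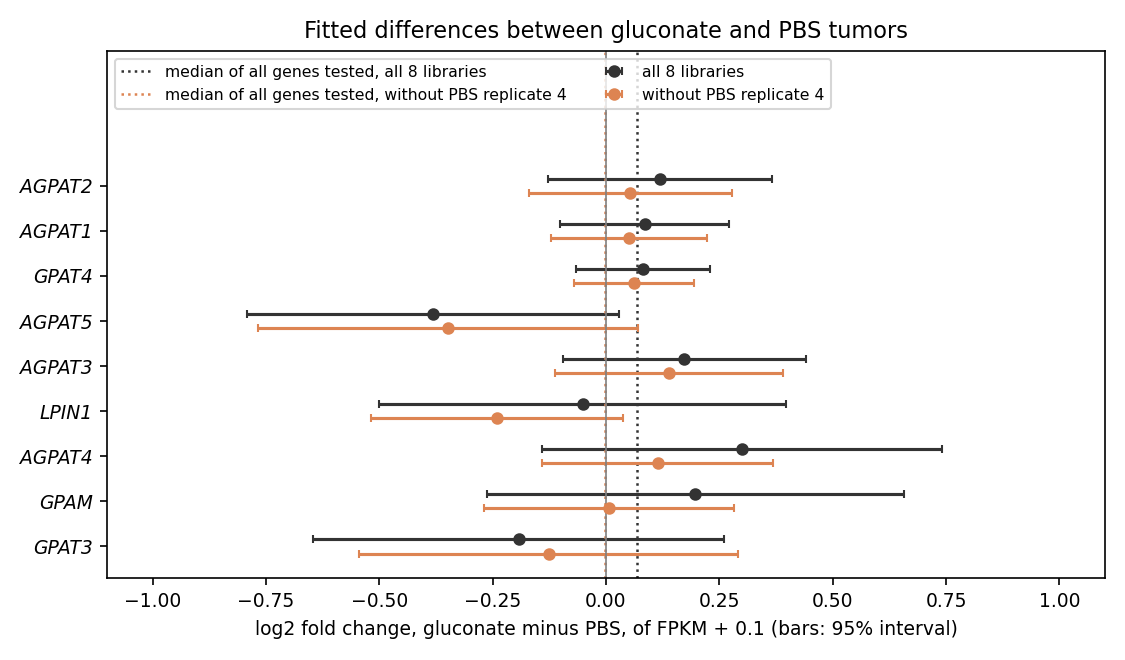
Log2 fold change of each gene, gluconate minus PBS, on the log2(FPKM + 0.1) scale with 95% intervals, for all 8 libraries and without PBS replicate 4. Every interval spans 0, and GPAT4 has one of the narrowest.

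PBS replicate 4 lay outside the range of the other 7 libraries in 7 of the 9 genes, below it in GPAM, GPAT4, AGPAT1, AGPAT2, AGPAT4 and LPIN1 and above it in GPAT3. Over all genes tested it was outside in 8955 (71.7%), below in 7241 (58%) and above in 1714 (13.7%), so such a place was common in this library. Counting only values whose 95% Poisson interval, which covers counting error alone, also lies outside, 2 of the 9 genes remained, beside 4370 genes (35%) of the table. These were GPAM, at 0.898 FPKM (interval 0.592 to 1.31) against 1.38 to 1.77 FPKM in the others, and AGPAT4, at 0.967 FPKM (interval 0.657 to 1.37) against 1.51 to 1.89 FPKM. Relative to the mean of the other 7 libraries, AGPAT4 was at 0.546, GPAM at 0.561 and LPIN1 at 0.634, whereas GPAT4 was at 0.923 and GPAT3 at 1.29. The cause of these differences was not tested.

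**Figure D4:**
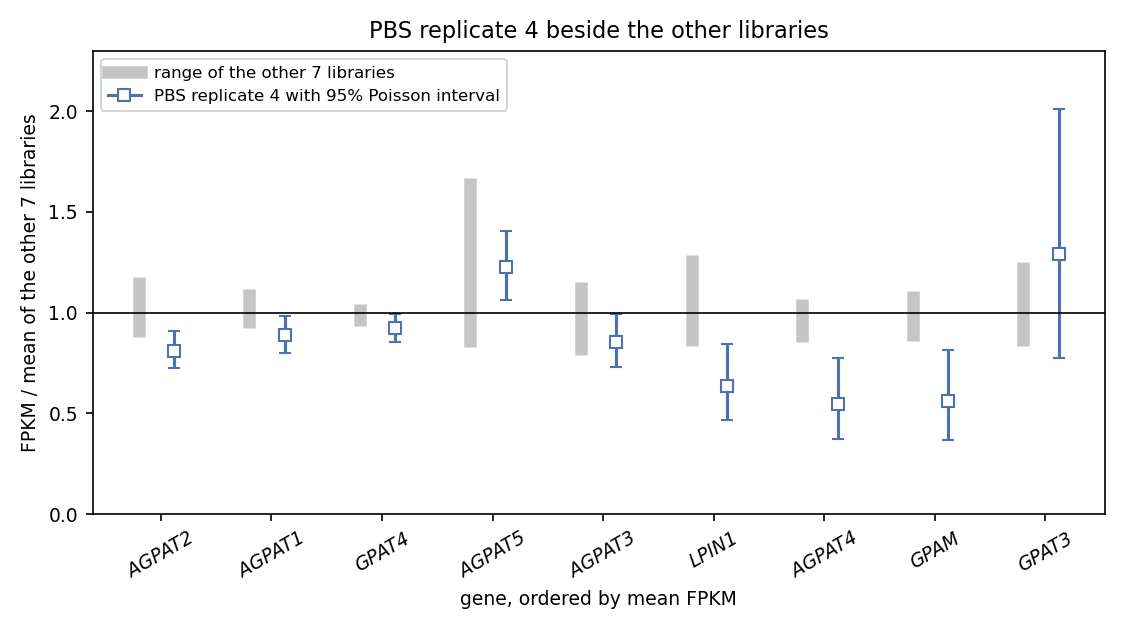
Level of each gene in PBS replicate 4 with its 95% Poisson interval beside the range of the other 7 libraries. The intervals of GPAM and AGPAT4 lie wholly below that range.

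The tumor sits among other tissues, and markers of other cell types were read beside these values. Of 5 adipocyte markers in the table, all were under 0.5 FPKM and their sum was 0 to 0.341 FPKM. The adipocyte markers ADIPOQ, LEP and RETN had no matching symbol. Of 8 fibroblast markers, 4 were tested and 0 passed; COL1A1 was the most abundant (41.4 to 182 FPKM), COL1A2, DCN, PDGFRA and THY1 were under 0.5 FPKM, and the sum was 44.7 FPKM in PBS replicate 4 against 128 to 190 FPKM. Of 7 endothelial markers, 0 reached the level needed for the test. Of 6 myeloid markers, 2 were tested and 0 passed; CD68 led with 19.7 to 28.0 FPKM, and PTPRC, CD14, CSF1R and LYZ were under 0.5 FPKM. Of 8 granulosa and theca markers, 2 were tested and 0 passed, and 6 were at 0 in PBS replicate 4. Their summed level was 5.65, 6.90, 5.72 and 22.9 FPKM in PBS replicates 1 to 4 and 3.66, 5.54, 4.16 and 5.41 FPKM in gluconate replicates 1 to 4, so every gluconate tumor was below every PBS tumor (exact permutation p = 0.0286; 0.0857 without PBS replicate 4). FSHR, CYP19A1, CYP17A1, STAR, HSD3B2 and INHA were under 0.5 FPKM in all libraries, so the sum is nearly that of FOXL2 and AMH, and in each of these 2 the groups overlap. FOXL2 was the most abundant of these, with 21.5 FPKM in PBS replicate 4 where the other libraries had 1.56 to 3.60 FPKM, while AMH was lowest in PBS replicate 4, at 1.40 FPKM against 1.73 to 4.03 FPKM. AMH, named after its values were seen, had a log2 fold change of -0.18 with all libraries, 0.01 without PBS replicate 3 and -0.47 without PBS replicate 4, where alone its unadjusted p was under 0.05 (adjusted p = 0.799 in limma with Benjamini-Hochberg adjustment). The part of these cell types in the values of the acyltransferases was not tested, and whether reads from mouse cells of the host were set aside is not given.

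The rest of the glycerolipid pathway was read from a list of 70 other genes, of which 66 are in the table and 53 were tested. At an unadjusted p under 0.05, 1 was higher and 1 lower in gluconate tumors, beside 4.62% of all genes tested, and the median log2 fold change was 0.11, beside 0.07; without PBS replicate 4, 54 were tested, 1 was higher, 0 were lower, beside 6.21% of all genes tested, and the median was -0.00, beside -0.00. Groups did not overlap in 2 of the 53, beside 3.49% of all genes, and PBS replicate 4 was outside the range of the other libraries in 37 of them, beside 71.7%.

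PLPP1, a lipid phosphatase that acts on phosphatidic and lysophosphatidic acid at the cell surface, was the gene that was higher. It was at 13.8, 13.8, 14.4 and 12.7 FPKM in PBS tumors and at 16.1, 16.2, 18.4 and 20.1 FPKM in gluconate tumors. Every gluconate tumor was above every PBS tumor, with gluconate replicates 3 and 4 the highest. The log2 fold change was 0.37 (standard error 0.09, 95% interval 0.16 to 0.58) with an unadjusted p of 0.00333, and the adjusted p of 0.740 in limma with Benjamini-Hochberg adjustment did not pass. The exact permutation test gave p = 0.0286, the smallest it can give, with and without PBS replicate 4. Without that library, PLPP1 had a log2 fold change of 0.33.

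G0S2, an inhibitor of the lipase that opens triacylglycerol stores, was the gene that was lower. It had 20.6, 23.8, 65.5 and 31.2 FPKM in PBS tumors and 21.9, 20.8, 19.0 and 15.1 FPKM in gluconate tumors. PBS replicate 3 alone was far above the rest, and the groups overlap. G0S2 had a log2 fold change of -0.73 (standard error 0.32, unadjusted p = 0.0445 and adjusted p = 0.740 in limma with Benjamini-Hochberg adjustment; exact permutation p = 0.0857). It was -0.38 without PBS replicate 3 and -0.74 without PBS replicate 4. The unadjusted p was above 0.05 without either of these, and also without each gluconate library in turn. PBS replicate 3 was also above all other libraries in 3 of the 9 genes, AGPAT5, LPIN1 and, by a small margin, AGPAT4, beside 19.1% of all genes tested.

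By step, the most abundant genes of the pathway were GPD1L in glycerol-3-phosphate supply (2.59 FPKM), ACSL4 among acyl-CoA synthetases (23.2 FPKM) and MBOAT7 among lysophospholipid acyltransferases (21.6 FPKM). ACSL3 was close to ACSL4 and above it in the gluconate mean, at 24.6 against 22.8 FPKM. In the PBS mean ACSL3 was below, at 21.1 against 23.6 FPKM, with 14.3 FPKM in PBS replicate 4. CTDNEP1, the phosphatase that activates lipins, had 59.5 FPKM, and DGAT1, which makes triacylglycerol, 12.3 FPKM. In the branches that follow, CDIPT in the CDP-diacylglycerol branch had 21.8 FPKM and CHPT1 in phosphatidylcholine synthesis 36.7 FPKM. PLIN3, a lipid droplet coat protein, was the highest of the list at 70.5 FPKM. The 8 lysophospholipid acyltransferases tested, which are related in reaction to the AGPATs, had a median log2 fold change of 0.18, and of 0.06 without PBS replicate 4. MBOAT2, also one of them and named after its values were seen, had groups apart by a small margin. It was at 5.72, 5.66, 5.46 and 2.96 FPKM in PBS and 5.74, 6.33, 6.59 and 5.83 FPKM in gluconate tumors. The log2 fold change was 0.35 (exact permutation p = 0.0286), and 0.12 without PBS replicate 4 (exact permutation p = 0.114). With all libraries, limma gave MBOAT2 an unadjusted p of 0.118 and, with Benjamini-Hochberg adjustment, an adjusted p of 0.740.

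**Figure D5:**
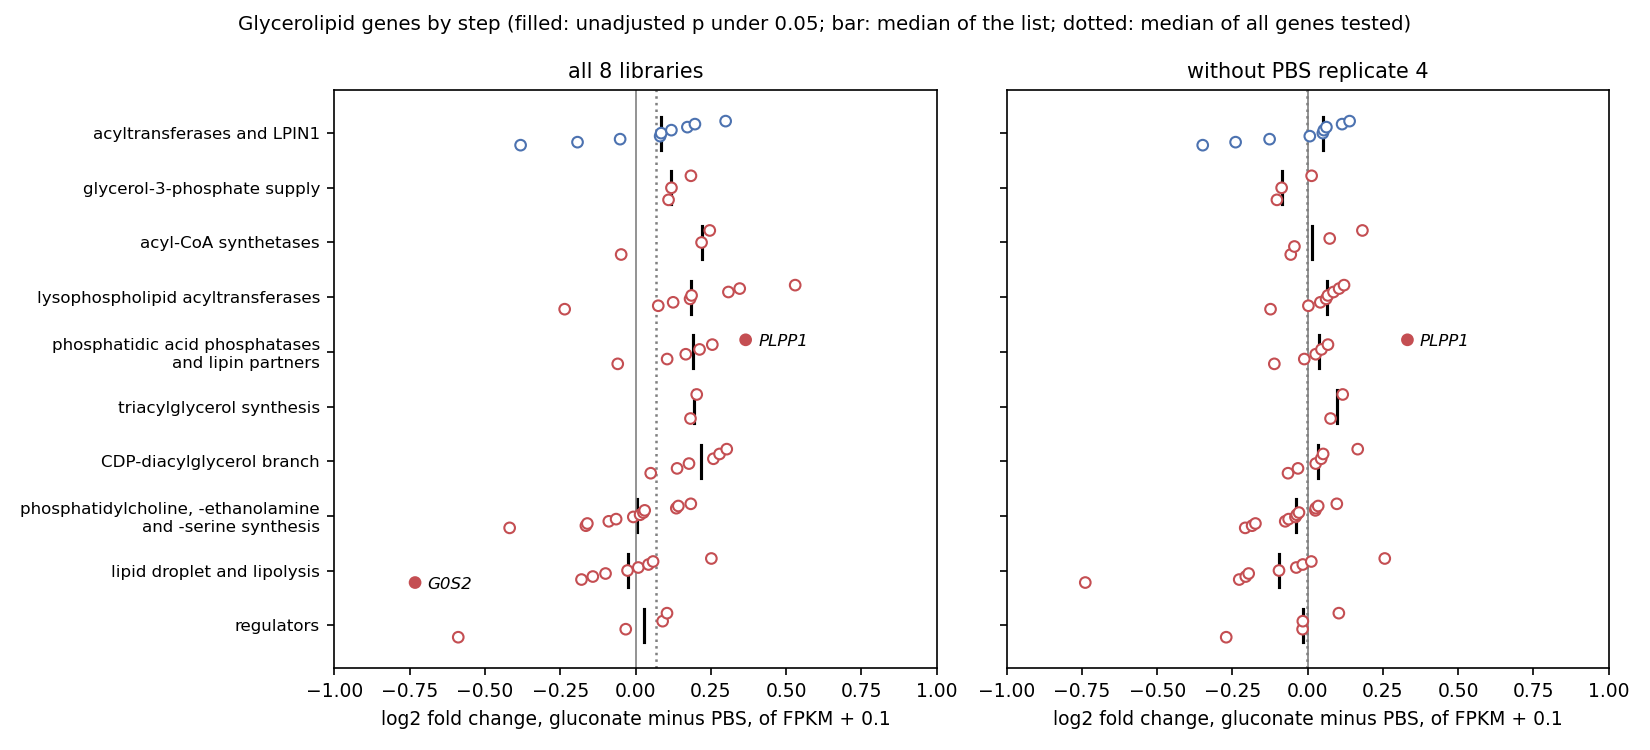
Log2 fold change of each tested gene by pathway step, for all 8 libraries and without PBS replicate 4, with filled marks for an unadjusted p under 0.05, a bar for the median of a step and a dotted line for the median of all genes tested. The medians of most steps move toward 0 without PBS replicate 4, and PLPP1 is filled in both panels.

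CHP1, which activates GPAT4, had 23.8, 24.7, 24.3 and 24.2 FPKM in PBS tumors and 24.4, 25.7, 26.1 and 28.1 FPKM in gluconate tumors. PBS tumors lay close together, gluconate replicate 4 was the highest, and the groups overlap at gluconate replicate 1. The log2 fold change was 0.10 (standard error 0.07, 95% interval -0.05 to 0.26; p = 0.165; exact permutation p = 0.0571), and it was also 0.10 without PBS replicate 4 (exact permutation p = 0.0857). It was smaller without gluconate replicate 4 (0.07) and under scaling by median ratios (0.039). SREBF1, a transcription factor gene of lipid synthesis, was at 5.98 to 6.61 FPKM with a log2 fold change of -0.03, and of -0.02 without PBS replicate 4.

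Across the 8 libraries, CHP1 and GPAT4 had a Pearson r of 0.561 (exact permutation p = 0.144) and a Spearman rho of 0.643 (exact permutation p = 0.0962). Gluconate replicates 3 and 4, high in both genes, carry part of this, and r was 0.391 without them. Over the 7 libraries without PBS replicate 4, r was 0.514 (exact permutation p = 0.245) and rho 0.571 (exact permutation p = 0.20). These libraries share 2 treatment groups, and GPAT4 varied little.

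Among 7114 genes with a mean of at least 5 FPKM, 17 had a Pearson r above 0.9 with GPAT4 over the 7 libraries without PBS replicate 4. The 5 most alike were BHLHE40 (r = 0.978), KLF6 (0.959), QPRT (0.938), PHACTR4 (0.937) and HSDL1 (0.927). Over all 8 libraries r was 0.967, 0.973, 0.934, 0.865 and 0.958 in the same order. Over the 7 libraries GPAT4 varied 1.12-fold, PHACTR4 1.13-fold, HSDL1 1.37-fold, KLF6 1.39-fold, QPRT 1.42-fold and BHLHE40 1.84-fold. Many genes were compared over few libraries, and these r values describe the libraries only.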

How the data were processed

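RNA-seq of 8 OVCAR8 tumor libraries was used, 4 PBS and 4 gluconate. Per the labels and the series description, RNA was extracted with TRIzol, RNA with an integrity number over 7 was used, and polyA libraries were made with the VAHTS V6 kit and sequenced paired-end on a NovaSeq. The authors deposited FPKM values for 24196 gene symbols, and the submitters' processing notes name GRCh38. The aligner, counting, annotation, strandedness and handling of mouse reads are not given in the sources used here.

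FPKM values fell on whole multiples of 1 fragment in 99.98% of values above 0 (tolerance 0.001 fragments), which gave the fragments of each library and Poisson 95% intervals that cover counting error only. Groups were compared with limma 3.58.1 in R 4.3.3 (lmFit, eBayes with a trend) on log2(FPKM + 0.1) where the mean reached 0.5 FPKM, with Benjamini-Hochberg adjustment over all of them. Single values were compared with the exact permutation test. The limma fits, but not the exact permutation test, were checked on simulated data with changes larger than those described here. The gene with the highest mean and every gene with an unadjusted p under 0.05 were named in each pathway list, and others as the text says. The genes and lists were chosen with earlier results of these data known.

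Alternatives were pseudocounts of 1 and 0.01, no filter, a mean FPKM of at least 1, median ratio scaling, quantile normalization, voom on recovered fragments, a block for the replicate number, and each library left out in turn. Listed genes with no matching symbol, LPCAT1, PLPP2, MOGAT1, CHP2, ADIPOQ, LEP, RETN, EMCN, CD163 and AIF1, were not analysed here. Promoters are from RefSeq (GRCh38.p14) and exons from GENCODE 29. Python 3.11.15 with numpy 2.4.6, scipy 1.17.1, pandas 2.3.3 and matplotlib 3.10.9 was used.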

Additional observations from a re-analysis of the deposited data

Results flagged for a closer look

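In each group of 4 libraries, a library was picked out when its gap to the nearest other, divided by the range of the group, passed Dixon's 95% critical value for 4 values. Chance alone picks about 1 in 20 groups. Of 58 groups examined in 29 measures, 5 passed, 4 of them in PBS replicate 4. PBS replicate 4 had 3953206 fragments, against 39895393 to 46551535 in the other PBS tumors. It had 15514 genes above 0, against 20014 to 20117. MBOAT2 was at 2.96 FPKM in it, against 5.46 to 5.72 FPKM, and the granulosa and theca markers summed to 22.9 FPKM, against 5.65 to 6.90 FPKM. Of that sum FOXL2 made up 21.5 FPKM and AMH 1.40 FPKM, its lowest level of the 8 libraries, and the other 6 markers were at 0. Gluconate replicate 2 had a summed adipocyte marker level of 0.103 FPKM, against 0.148 to 0.153 FPKM in the other gluconate tumors. The causes were not tested.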

How the results depend on the processing

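Of 334 values under alternatives for 23 results, 305 kept their side of the threshold or, without a test, moved by less than the spread between replicates or, for a count, stayed close to the one reported. Of these, 1 changed sign: the median of the other glycerolipid genes, from 0.11 to -0.0045 without PBS replicate 4. A replicate block or another filter cannot change the log2 fold change of a gene, only its p. Agreement in those settings says nothing of the size of a fold change. The log2 fold change of GPAT4 (0.08) was 0.06 to 0.10 when single libraries were left out, 0.016 with median ratio scaling and 0.047 with quantile normalization, and the median of the 9 genes (0.09) was 0.019 and 0.052 with these scalings. PLPP1 kept an unadjusted p under 0.05 in all 16 settings. The count of the 9 genes at p under 0.05 was 0 to 1 when single libraries were left out and 1 with median ratio scaling, each time AGPAT5 (-0.45 with that scaling, -0.50 without PBS replicate 1, -0.48 without PBS replicate 2). The difference in GPAT4 share, 0.14 points, ran from -0.15 to 0.49 points with single libraries left out; it reversed without PBS replicate 2 (-0.07) and without gluconate replicate 4 (-0.15). LPIN1 reversed without PBS replicate 2 (0.01) and without PBS replicate 3 (0.0879), and its range was -0.24 to 0.09. AMH reversed without PBS replicate 3 (0.0134) and was -0.47 without PBS replicate 4. The count of other glycerolipid genes at p under 0.05, 2 with all libraries, was 1 with voom and 1 to 5 with single libraries left out; over all genes, the count of 577 ran from 267 of 12476 without gluconate replicate 4 to 1216 of 12486 without PBS replicate 1, where 5 of the list were counted, and was 595 with voom. G0S2 lost its p under 0.05 in 8 settings (-0.80 to -0.38), and KRT7 without gluconate replicate 3 (0.67) and without gluconate replicate 4 (0.66). The count of the 9 genes outside the range of the other libraries in PBS replicate 4 was 7, and 2 beyond the Poisson interval. It was 5 with median ratio scaling and 5 with quantile normalization. The cause was not tested. GPAT3 has no value at a mean FPKM of at least 1, where it was not tested, and GPAT2 has none in the fit with the filter.

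The replicates of the groups share only a number. Correlations of their deviations across genes were -0.18, 0.08, 0.17 and -0.06 for replicates 1, 2, 3 and 4. A replicate block moved the count of all genes at an unadjusted p under 0.05 from 577 to 470. Among these, 0 were of the 9 genes and 2 were other glycerolipid genes. Each replicate number holds 1 library of each group, so a block cannot change a difference in means. The log2 fold change of GPAT4 (0.08) and its share difference (0.14 points) were therefore the same by design.

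The depth of PBS replicate 4 limits low genes most, as GPAM rests on 27 fragments there and GPAT3 on 19. With 4 libraries a group, 0 genes passed the adjusted threshold. FPKM is a relative measure, and mRNA is not enzyme amount or lipid flux.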

Other observations

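Of the 53 other glycerolipid genes tested, PBS replicate 4 was above the range of the other 7 libraries in 5 (LPCAT4, CTDNEP1, CEPT1, SREBF1 and PPARG) and below it in 32, beside 13.7% and 58% of all genes tested. The genes described here were named after their values were seen. CEPT1, which makes phosphatidylcholine and phosphatidylethanolamine, was at 36.2 FPKM in it and at 15.1 to 20.9 FPKM in the other 7 libraries. PPARG, a nuclear receptor gene of lipid storage, was at 2.29 FPKM in it and at 0.516 to 1.08 FPKM in the others. MBOAT1, a lysophospholipid acyltransferase, was low there, at 0.265 FPKM from 6 fragments, against 1.18 to 1.52 FPKM.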
